A study of Mus musculus with 6 samples.

Results

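The 9 genes described here are the beta cell identity genes Ins1, Ins2, Pdx1, Nkx6-1, Mafa, Slc2a2, Iapp, Ucn3 and G6pc2, followed in a line of glucagon-producing α cells. They were chosen by function and found by gene symbol, as 9 of the 55487 genes in the count table. RNA was sequenced from αTC1 cells, a mouse glucagonoma line derived from a transgenic animal in which the preproglucagon promoter drives a viral large T antigen. Cells of this line were treated with G786-1089, which the series describes as an inhibitor of SMNDC1, or with DMSO, the solvent used as its control, and 3 libraries were made per treatment. The name of every count column begins with WT, read here as wild type. The labels give no other allele, agent, dose or time. SMNDC1 is a splicing factor with a Tudor domain, and the question was raised by the proposal that loss of SMNDC1 increases insulin in α cells. The libraries are called A, B and C here after the letters of the count columns, and no label ties a letter to a replicate number. According to the study's methods, cells for each replicate came from the same batch and were divided at random between treatments, and the samples of a replicate were handled together. The p-values measure the spread between these libraries, which may be technical.

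In the pancreatic islet, α cells secrete glucagon and β cells secrete insulin, and each identity is held by its own set of transcription factors. PDX1, NKX6-1 and MAFA are homeodomain and bZIP factors that bind the enhancers of insulin and of other β cell genes, and PDX1 is silenced when an endocrine cell takes the α fate. The mature β cell couples glucose to insulin release through its uptake by the transporter GLUT2, the product of Slc2a2, and G6PC2 is a glucose-6-phosphatase of the islet that opposes the use of glucose. IAPP is stored and released with insulin, and UCN3 is a peptide of the corticotropin-releasing factor family that marks mature β cells in the mouse. Mice carry a pair of insulin genes, the ancestral Ins2 and the retrogene Ins1.

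The line carried the main α cell transcript but not every α cell marker. Gcg, which encodes proglucagon, had the highest FPKM of 21936 protein-coding genes with DMSO, at 17893 ± 1277 (SD, n = 3), and was still ranked 9 with G786-1089, at 2631 ± 342. FPKM is a level per kilobase of transcript, scaled between libraries. Gc, which encodes a vitamin D-binding protein, had 0 counts in every library. Of the 10 α cell markers listed, 7 could be tested. Markers of δ, PP and ε cells were at 0 in every library for Sst, Hhex, Ghsr, Ppy and Pyy, and the acinar and ductal genes Cpa1, Ctrb1, Prss2, Ptf1a, Amy2a5 and Cftr were at 0 too. The libraries held 59070705 to 94747943 counts, and each G786-1089 library was deeper than each DMSO library. A count of 0 allows up to 3 counts at 95% confidence, or 0.0317 to 0.0508 CPM (counts scaled to a common library total), which covers counting error only. Even values made up 78.1% of counts between 1 and 10, and a fragment may often have added 2 counts, in which case this floor is too low by up to that factor. The CPM of single genes were also scaled by TMM factors. Smndc1 itself had 3.80 ± 2.42 CPM with G786-1089 and 2.12 ± 0.575 CPM with DMSO (n = 3 each), and the difference did not pass the test (edgeR adjusted p = 0.499).

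The 9 genes fell into 3 levels of detection. Ins1 and Pdx1 were silent, defined as 3 counts or fewer in every library. Silent describes the count table only, since broadly expressed genes such as Ldha, Yap1, Tcf7l2 and Zfp36l1 were also listed at 0 in all 6 libraries, and the cause of those zeros was not tested. Mafa, Slc2a2, Ucn3, Iapp and Ins2 had few counts and were at 0 in at least 1 library. Nkx6-1 and G6pc2 had 408 counts or more in all 6 libraries. With silent taken as fewer than 10 counts in every library, 3 genes were silent, Mafa being added, and with FPKM under 0.1 in every library 4 were, Slc2a2 being added as well. Among protein-coding genes, 39.0% had 0 counts in all 3 G786-1089 libraries and 39.8% in all 3 DMSO libraries.

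**Figure D1:**
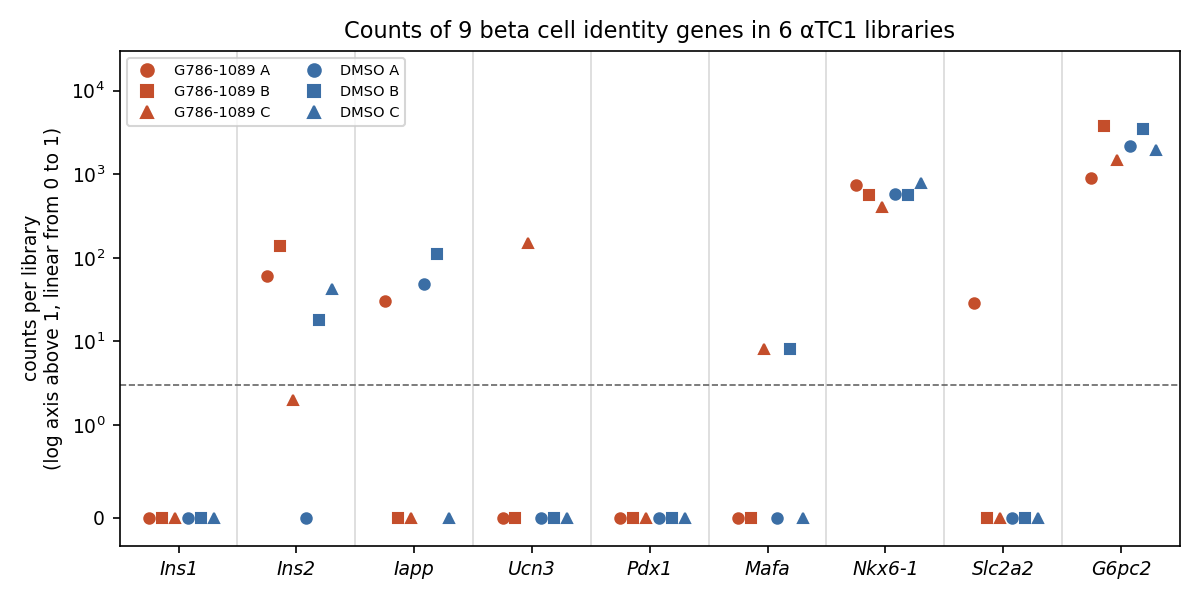
Counts of the 9 genes in each library (vertical axis, logarithmic above 1 and linear from 0 to 1), with G786-1089 in orange and DMSO in blue, circles for library A, squares for B and triangles for C. The dashed line marks the floor of 3 counts. Ins1 and Pdx1 lie at 0 in all 6 libraries, and the orange and blue points of Nkx6-1 and of G6pc2 overlap.

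The sequences just upstream of the silent insulin gene and of the gene with the highest level are shown to set them side by side. They are the 250 bases before the RefSeq start on GRCm38.p6, from a table with entries for 7 of the 9 genes. Capitals mark TAAT or ATTA, the core that homeodomain factors such as PDX1 read, and CATCTG or CAGATG, an E-box form read by NEUROD1 with its partners, each searched on both strands.
Ins1 (chr19:52264047-52264296, plus strand): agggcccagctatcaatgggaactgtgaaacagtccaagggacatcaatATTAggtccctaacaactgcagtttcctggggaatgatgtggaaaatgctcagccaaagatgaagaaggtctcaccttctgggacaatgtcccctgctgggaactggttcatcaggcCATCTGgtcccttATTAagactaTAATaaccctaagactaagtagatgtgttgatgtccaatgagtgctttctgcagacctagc
G6pc2 (chr2:69219699-69219948, plus strand): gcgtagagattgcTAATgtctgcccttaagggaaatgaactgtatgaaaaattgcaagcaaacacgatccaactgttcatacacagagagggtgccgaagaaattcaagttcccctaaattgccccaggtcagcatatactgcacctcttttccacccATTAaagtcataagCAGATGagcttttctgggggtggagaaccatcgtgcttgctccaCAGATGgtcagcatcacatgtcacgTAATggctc
The Ins1 window held TAAT or ATTA 3 times, first bases at -201, -71 and -61 from the start, and the E-box once at -84. The G6pc2 window, which ends before the first of the basic coding transcripts at 69219971, held TAAT or ATTA 3 times, at -237, -92 and -9, and the E-box at -78 and -34. Of 32851 promoters in the table, 54.9% held TAAT or ATTA and 14.4% the E-box within 250 bases, and a match is only a description. Both windows shown held both strings, and only G6pc2 of this pair had counts. A second G6pc2 window in the table (69210823 to 69211072), which ends at the annotated start of the gene, held TAAT or ATTA 1 time and the E-box 0 times.

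In the count table, insulin was near the limit of detection with either treatment. Ins1 (chromosome 19, 52264297 to 52265476, plus strand of GRCm38, 2 exons) had 0 counts in all 6 libraries. Ins2 (chromosome 7, 142678656 to 142743381, minus strand) had 60, 140 and 2 counts in G786-1089 libraries A, B and C, and 0, 18 and 42 counts in DMSO libraries A, B and C. The highest values were in G786-1089 A and B, but G786-1089 C was lower than DMSO B and C, so the treatments overlapped. In CPM, Ins2 was at 0.741 ± 0.689 with G786-1089 and 0.350 ± 0.392 with DMSO (SD, n = 3), with a log2 fold change of 1.08 (SE 1.78) and a 95% interval from -3.18 to 5.35 (edgeR adjusted p = 0.762). This interval reaches from 0.110-fold to 40.7-fold, so changes of several fold in either direction lay within it. In bulk RNA, fewer cells with a transcript and less transcript per cell cannot be told apart. The best match of Ins1 to Ins2 transcripts had 86.4% identity over 479 bases, below the 95% taken as near-identical. Reads were counted on transcripts, and Ins2 has 8 basic transcripts against 1 for Ins1. Whether this lowered the Ins2 counts was not tested.

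Set against glucagon in the same library, the insulin counts spread as widely. Per 1000000 Gcg counts, Ins1 and Ins2 together had 223, 494 and 7.84 counts in G786-1089 A, B and C, and 0, 13.5 and 33.8 counts in DMSO A, B and C. G786-1089 C lay under its floor of 11.8. The difference of the mean log2 ratios was 4.15, with a mean of -13.2 ± 2.99 with G786-1089 and -17.4 ± 3.38 with DMSO (SD, n = 3, 0.5 added to each count). The exact two-sided permutation test gave p = 0.3, and 3 libraries against 3 cannot go below 0.1. The denominator moved with treatment: Gcg made up 0.384%, 0.299% and 0.322% of counts with G786-1089 and 1.90%, 1.91% and 2.11% with DMSO. In the test across genes Gcg fell by 2.76 on the log2 scale (SE 0.106, edgeR adjusted p = 0.000106).

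**Figure D2:**
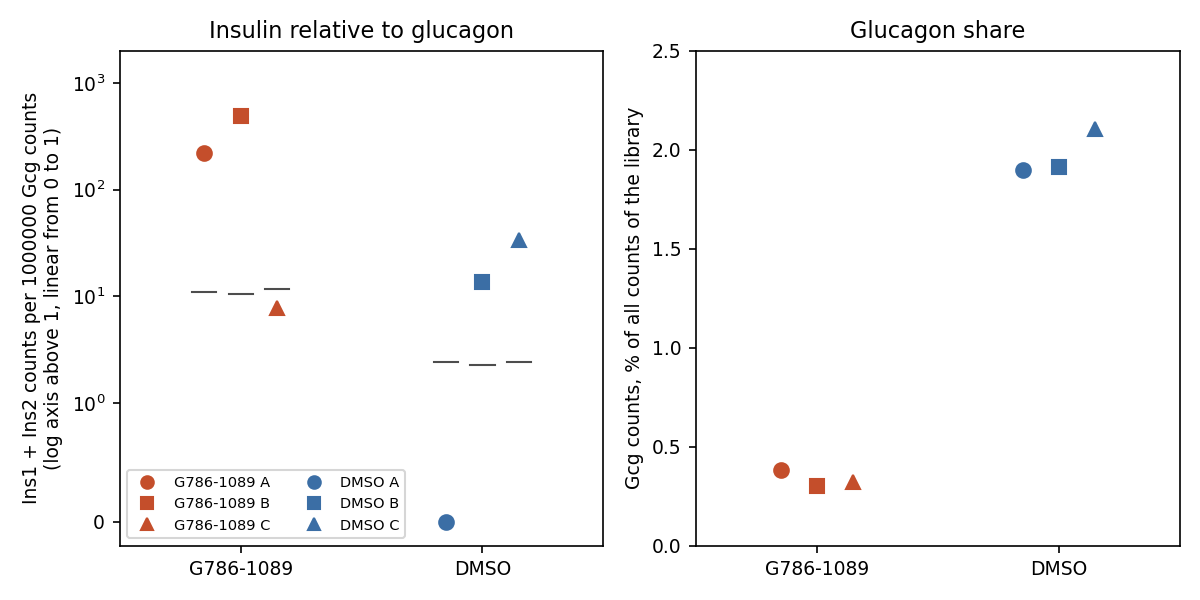
Left, counts of Ins1 and Ins2 together per 1000000 Gcg counts in each library (logarithmic above 1, linear from 0 to 1), with short lines at the value of 3 counts; right, Gcg counts as a percent of all counts of the library. Orange is G786-1089 and blue is DMSO, with circles, squares and triangles for libraries A, B and C. The left panel spans 7.84 to 494 with G786-1089 and 0 to 33.8 with DMSO, whereas the Gcg shares on the right do not overlap.

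Transcripts for the peptides of the β cell granule and of β cell maturity were found in some libraries only. Iapp (chromosome 6, 142298423 to 142303961, plus strand) had 30, 0 and 0 counts in G786-1089 A, B and C and 48, 112 and 0 counts in DMSO A, B and C. A library at 0 was present in both groups, and the means were 0.134 ± 0.232 CPM with G786-1089 and 0.838 ± 0.863 CPM with DMSO (SD, n = 3). The log2 fold change of Iapp was -2.65 (SE 2.40, 95% interval -8.38 to 3.09, edgeR adjusted p = 0.548). Ucn3 (chromosome 13, 3940688 to 3945349, minus strand) had 149 counts in G786-1089 C, or 1.72 CPM, and 0 in the other 5 libraries. G786-1089 A and B were thus at the same value as DMSO, and Ucn3 did not reach the minimum for testing. Counts in exactly 1 library were found for 1511 protein-coding genes (6.89%), Ucn3 and Slc2a2 among them.

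Among the transcription factors, Pdx1 was silent, Mafa was near the floor and Nkx6-1 was expressed. Pdx1 (chromosome 5, 147269959 to 147275848, plus strand, 2 exons) had 0 counts in all 6 libraries and was thus under the floor given above. Mafa (chromosome 15, 75745490 to 75748228, minus strand, 1 exon) had 8 counts in G786-1089 C, 8 in DMSO B and 0 elsewhere. The summed counts of Mafa were thus the same for both treatments. Nkx6-1 (chromosome 5, 101658139 to 101664996, minus strand, 3 exons) had 733, 568 and 408 counts in G786-1089 A, B and C and 578, 560 and 793 counts in DMSO A, B and C. In CPM these were 9.80, 5.67 and 4.70 with G786-1089 and 9.50, 8.62 and 14.6 with DMSO, so that G786-1089 A lay above DMSO A and B. The means of 6.73 ± 2.71 and 10.9 ± 3.22 CPM gave a log2 fold change of -0.70 (SE 0.40, 95% interval -1.66 to 0.26, edgeR adjusted p = 0.325). Per length, Nkx6-1 stood at 1.96 ± 0.785 FPKM with G786-1089 and 3.19 ± 0.951 FPKM with DMSO, at percentiles 66.4 and 71.9 of protein-coding genes.

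Of the genes of glucose handling, the transcript of the transporter was found in 1 library and that of the phosphatase in all. Slc2a2 (chromosome 3, 28697903 to 28731359, plus strand, 11 exons) had 29 counts in G786-1089 A, or 0.388 CPM, and 0 in the other 5 libraries, and was not tested. G6pc2 (chromosome 2, 69211073 to 69227841, plus strand) had the highest level of the 9 genes, 10.7 ± 6.61 FPKM with G786-1089 and 20.3 ± 4.98 FPKM with DMSO (SD, n = 3), at percentiles 81.4 and 86.9. Its counts were 890, 3740 and 1466 in G786-1089 A, B and C and 2184, 3488 and 1937 in DMSO A, B and C. As CPM these came to 11.9, 37.3 and 16.9 with G786-1089 and 35.9, 53.7 and 35.6 with DMSO. G786-1089 A and C were the lowest libraries, and G786-1089 B lay above DMSO A and C. The log2 fold change was -0.92 (SE 0.44, 95% interval -1.98 to 0.14) and did not pass the test (edgeR adjusted p = 0.242). The result of G6pc2 turned on 1 library: without G786-1089 B the log2 fold change was -1.53 (SE 0.304) and passed (edgeR adjusted p = 0.0399).

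**Figure D3:**
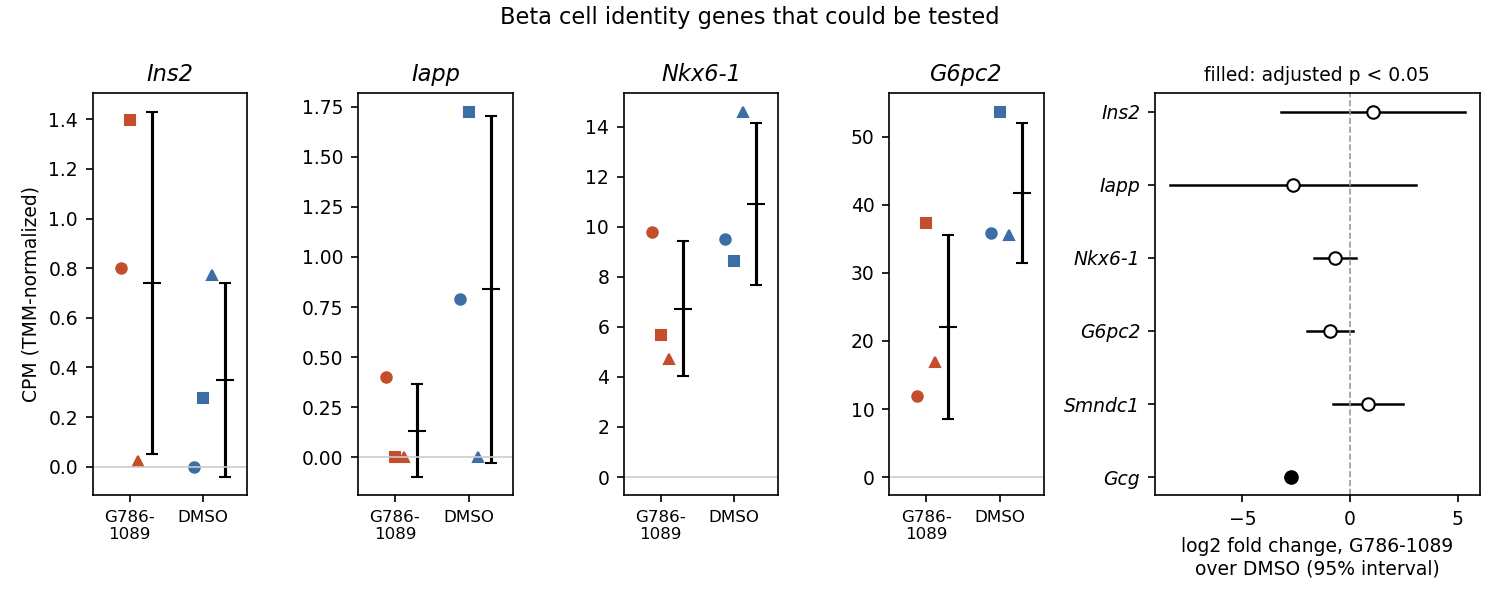
The first 4 panels show CPM in each library for the genes that could be tested (orange, G786-1089; blue, DMSO; circles, squares and triangles for libraries A, B and C), with the mean and SD of 3 libraries in black. The last panel shows log2 fold changes of G786-1089 over DMSO with 95% intervals, filled where the adjusted p is under 0.05. The intervals of Ins2, Iapp, Nkx6-1 and G6pc2 all include 0, and that of Ins2 runs from -3.18 to 5.35.

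In order of level per length, G6pc2 stood first and Nkx6-1 second with both treatments. With DMSO, Iapp followed at 0.916 ± 0.943 FPKM and Ins2 at 0.245 ± 0.275 FPKM, which did not differ beyond their spread. With G786-1089, Ins2 followed at 0.519 ± 0.485 FPKM, then Ucn3 at 0.354 ± 0.613 FPKM and Iapp at 0.146 ± 0.252 FPKM, again within their spread. Slc2a2 at 0.0212 FPKM and Mafa at 0.0102 FPKM came last among the genes with any counts. Gcg was far above each of them with either treatment.

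Of the 9 genes, 4 passed the filter on low counts and were tested, and 0 were called by edgeR at an adjusted p under 0.05, beside 14.3% of the 15082 genes tested (6.78% higher and 7.56% lower with G786-1089). At an unadjusted p under 0.05, 0 of the 4 passed, beside 27.7% of all tested genes. DESeq2 and limma-trend on FPKM called 0 as well, and so did the filter of the study, an adjusted p no higher than 0.1 together with a log2 fold change of 1 or more in either direction, which 10% of genes passed. CPM ranges of the treatments were separate for 0 of the 4, beside 36.7% of all tested genes. Estimates were lower with G786-1089 for 3 genes and higher for Ins2, with a median log2 fold change of -0.81 beside 0.04 over all tested genes. With 4 genes of which 2 had few counts, the share near or under the background is no result about the 9 genes as a group. With library size as the only scaling, the median of all genes was at 0.25 and the calls were 1583 higher and 775 lower, against 1022 and 1140 with TMM. None of the 4 estimates changed sign under that scaling.

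The other islet transcription factors were split between genes listed at 0 and well expressed genes. Of 22 listed, 9 were at 0 in every library, among them Rfx6, Pax4 and Neurog3, and 11 were tested. Etv1, Neurod1 and Isl1 fell (3 of 11 tested, 27.3%, beside 7.56% of all tested genes), and 0 rose, with a median log2 fold change of -0.43. Neurod1, which binds the insulin E-box, had 68.1, 52.6 and 75.2 CPM with G786-1089 and 148, 129 and 145 CPM with DMSO, a log2 fold change of -1.11 (SE 0.158, edgeR adjusted p = 0.00665). Isl1, a LIM homeodomain factor of all islet endocrine cells, had a log2 fold change of -0.72 (SE 0.104, edgeR adjusted p = 0.00707). The treatments did not overlap for either gene.

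Chromatin regulators, several of them known to act at Pdx1, were nearly all present. All 19 listed were tested, Dnmt3b rose and Chd4 fell (2 of 19, 10.5%), and the median log2 fold change was 0.11. That share is under the 14.3% of all tested genes, so it is no result about the list. Dnmt3b, a DNA methyltransferase, had 11.5 ± 3.23 CPM with G786-1089 and 2.76 ± 1.28 CPM with DMSO (edgeR adjusted p = 0.0305), and Chd4, a remodeller of the NuRD complex, 28.5 ± 1.67 and 43.5 ± 1.06 CPM (edgeR adjusted p = 0.0348). Both calls were weak, since Chd4 did not pass without any 1 of the 6 libraries (adjusted p from 0.0611 to 0.106) and Dnmt3b passed only without DMSO B (otherwise 0.0627 to 0.101). Pdx1 stayed at 0 counts in the libraries of both treatments.

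Genes for the processing and storage of prohormones were abundant, and more of them fell. Of 20 names listed, 17 were tested, 9 fell (52.9%, beside the 7.56% of all genes called lower) and 0 rose, and the median log2 fold change was -0.52. Among them Pcsk2, the prohormone convertase that cleaves both proglucagon and proinsulin, went from 2007 ± 17.2 to 1227 ± 33.3 CPM (log2 fold change -0.71, edgeR adjusted p = 0.000345). Slc30a8, the zinc transporter of the insulin granule, went from 673 ± 50.6 to 320 ± 32.9 CPM (log2 fold change -1.07, edgeR adjusted p = 0.00132). Chga, a granin, and Pdia6, a disulfide isomerase of the endoplasmic reticulum, had log2 fold changes of -1.12 and -1.16. With each library left out in turn, 7 to 9 were called lower. Pcsk1, the convertase typical of β cells, had at most 20 counts in any library.

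Among 22 listed genes of glucose sensing and secretion, 17 were tested, Slc2a3 and Slc2a1 rose, and Rapgef4 fell. These 3 of 17 (17.6%) are near the 14.3% of all tested genes, so the values concern the named genes and not the list. Slc2a1, which encodes GLUT1, had 102, 109 and 98.1 CPM with G786-1089 and 33.3, 22.0 and 23.3 CPM with DMSO, a log2 fold change of 1.97 (SE 0.193, edgeR adjusted p = 0.00160). Slc2a3, which encodes GLUT3, had 23.3, 21.8 and 34.1 CPM with G786-1089 and 1.61, 0.862 and 1.40 CPM with DMSO, a log2 fold change of 4.35 (SE 0.377, edgeR adjusted p = 0.00115). The transcripts of these transporters were thus higher in all 3 libraries, where Slc2a2 had counts in 1 library. Rapgef4, a cAMP sensor of exocytosis, had a log2 fold change of -1.06 (edgeR adjusted p = 0.0319) and passed only without G786-1089 A when 1 library was left out (otherwise 0.0802 to 0.0939). Glp1r, the receptor of the incretin GLP-1, had 0 counts in every library.

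Of 17 further β cell-enriched genes found, 8 were at 0 in every library and 5 were tested. Prlr, the prolactin receptor, fell from 60.1 ± 8.99 to 11.1 ± 3.85 CPM (log2 fold change -2.44, SE 0.292, edgeR adjusted p = 0.00352), and 0 rose, so that 1 of 5 was called. Of 22 genes that mature β cells keep off, 11 were tested and Igfbp4 fell from 181 ± 18.8 to 93.1 ± 18.5 CPM (edgeR adjusted p = 0.0150), a call lost without DMSO A or DMSO B (0.0575 and 0.0530), and 1 of 11 was called (9.09%). Over all tested genes, 7.56% were called lower and 14.3% in either direction, and with so few genes tested neither count is a result about its list. Ldha, Rest and 4 other genes of that list were listed at 0 in every library. Beside these, the α cell marker Irx2 had a log2 fold change of -0.64 (edgeR adjusted p = 0.0335), which passed only without DMSO B (otherwise 0.0611 to 0.108).

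**Figure D4:**
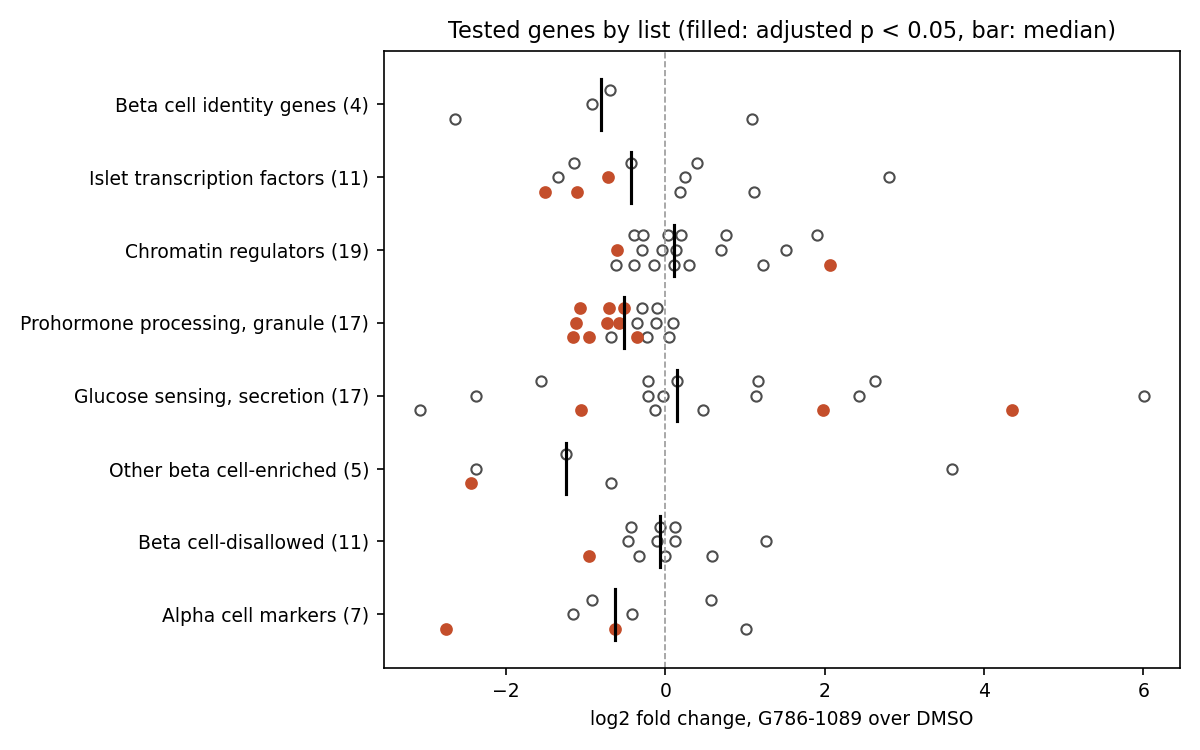
Log2 fold changes of G786-1089 over DMSO (horizontal axis) for the tested genes of each list, with the number tested in parentheses, filled orange where the adjusted p is under 0.05 and with a black bar at the median. The 4 β cell identity genes are open circles with a median of -0.81, and the 9 filled circles among the processing and granule genes all lie below 0.

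The markers of other islet and pancreatic cells that did have counts were few. Rbp4 was the only tested gene of the δ, PP and ε cell list, at 429 ± 8.20 CPM with G786-1089 and 339 ± 20.9 CPM with DMSO (edgeR adjusted p = 0.0239), which did not pass without any 1 of 6 libraries (0.0587 to 0.0815). Of 13 acinar and ductal genes, 5 were tested and 0 were called by edgeR. DESeq2 called Cela1 (log2 fold change 1.17, DESeq2 adjusted p = 0.0126) and Krt7 (-0.80, DESeq2 adjusted p = 0.0133), in opposite directions. The summed level of the 13 genes was 67.1 to 85.5 CPM with G786-1089 and 67.9 to 72.4 CPM with DMSO. Their part in the counts of the β cell genes was not tested. The genes whose CPM followed G6pc2 most closely over the 6 libraries were Las1l (Pearson r of log2(CPM + 1) 0.998), Apopt1 (0.995), Ptprk (0.993), Trappc5 (0.991) and Trmt112 (0.990), out of 7326 genes with a mean of at least 10 CPM. These values share libraries, depth and scaling, and are given as a description.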

How the data were processed

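The authors aligned reads of unstranded Smart-seq2 libraries to GRCm38 with STAR 2.7.9a and deposited whole-number counts, counted on transcripts and summed per gene without normalization, so a gene and an antisense partner cannot be told apart. The authors also deposited FPKM values, whose making is not given in the sources used here. Counts were fitted in R 4.3.3 with edgeR 4.0.16 (TMM, filterByExpr with minimum count 10 and minimum total 15, robust quasi-likelihood test, treatment only, Benjamini-Hochberg over 15082 genes). Positions are from GENCODE vM21, which 55141 genes matched, 99.4% with the same coordinates. The 9 genes, the gene lists and the tests were chosen with earlier results of these data known. Named list genes are up to 4 called genes with the smallest p or, with under 2 called, up to 2 tested genes of highest level; others were named after their values were seen. The alternatives were RLE, library size only, DESeq2 1.42.0, other filters, limma-trend 3.58.1 on log2 FPKM, a replicate block, left-out libraries and, chosen after seeing the data, thinned counts. Copies were searched with blastn 2.17.0.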

Additional observations from a re-analysis of the deposited data

How the results depend on the processing

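None of the 9 genes was called in any fit except G6pc2, which made 1 call without G786-1089 library B (0 to 1 over the left-out libraries). Fold changes kept their sign in every fit that gave one: Ins2 from 0.24 to 2.39, Nkx6-1 from -1.07 to -0.44, G6pc2 from -1.53 to -0.62 and Iapp from -8.95 to -0.63. The count of all genes past the threshold was 2162, moved to 4298 with DESeq2 and 1159 with the replicate block by column letter, and ran from 1205 to 1479 with 1 library left out. The letters did not pair the libraries: same-letter deviations correlated at -0.0078, 0.0069 and 0.0049, and the block called 0 of the 9 genes. The insulin to glucagon difference ran from 2.24 to 5.85 with 1 library left out and was 4.15 with the block (exact p = 0.5). It was 3.48 on FPKM with 0.1 added (exact p = 0.1, the lowest that 3 libraries against 3 can give). The fall of Gcg enters each of these differences. In FPKM, Ins2 itself overlapped between treatments, at 0.0160 in G786-1089 C and 0.542 in DMSO C. Silent genes numbered 2 by counts and 4 with FPKM under 0.1. Among 24 other named genes, 14 of 240 values under the other alternatives and 29 of 144 with 1 library left out no longer passed. These totals include Ero1lb, Sox4, Oat, Ndrg2, Krt7, Cela1 and Smndc1, which had not passed in the main edgeR fit and had no call to lose. The share lost among the called genes was therefore higher than these totals give. Another 4 of the 240 newly passed, for Cela1 and Krt7. The log2 fold change of Oat, -0.07, changed sign with library size only (0.13) and ran from -0.26 to 0.033 with 1 library left out. Thinning the counts to the lowest total called 2186 genes. The cause of these changes was not tested. Low counts limit what can be read: the intervals of Ins2 and Iapp span many fold, and Ucn3, Slc2a2 and Mafa could not be tested.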
